A study of Homo sapiens with 27 samples.

Results

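The 38 genes described here build the machinery that copies DNA and carry cells from G1 into S phase. They were taken by symbol from a list, with no threshold on their values, and all 38 were among the 23228 genes of the table. They were measured by RNA-seq of total RNA from ARCaPM-DR, 22Rv1-DR and DU145-DR, which are 3 human castration-resistant prostate cancer lines. The labels give DR and Ch-CRPC without spelling them out; as background, lines of these names are known as sublines selected for resistance to docetaxel, a drug that blocks microtubules. In each line, 1 group carried shGATA2a and another shGATA2b, hairpins that knock down the transcription factor GATA2, and the Control group carried a random hairpin, with 3 libraries per group and 27 in all. All groups of a line, controls included, share the line's resistance and carry a hairpin. The labels do not say whether hairpin cells were pools or clones, when RNA was taken, or whether replicates were separate cultures, so p-values measure only the spread between these libraries, which may be technical.

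DNA replication starts in G1, when origins are licensed by loading the ring-shaped MCM2-7 helicase with the help of CDC6 and CDT1. At the G1/S boundary cyclin E-CDK2 and E2F transcription factors come into play, MCM10 and the GINS complex help turn the helicase on, and polymerases then copy both strands behind it. The PCNA clamp, its loader RFC, the single-strand binding protein RPA, the nuclease FEN1, ligase LIG1 and the chromatin assembly factor CAF-1 act at the moving fork. E2F factors are the textbook activators of many of these genes. GATA2 is best known from blood cell development, and in prostate cancer as a partner of the androgen receptor.

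The stretch around the start of several members carries words of the E2F consensus, and those of genes that the results turn on are shown here from the RefSeq promoter windows of build GRCh38.p14. Each run is 5′ to 3′ on the gene's own strand and covers the 100 bases before the annotated start and the first 20 bases from it. Capitals mark an exact match to TTTCCCGC, TTTGGCGC, TTTCGCGC or TTTGCCGC on the shown strand, or to its other-strand reading GCGGGAAA, GCGCCAAA, GCGCGAAA or GCGGCAAA. The regions belong to MCM2 (chr3:127598311-127598430, plus strand), MCM7 (chr7:100101378-100101497, minus strand), CDC6 (chr17:40287779-40287898, plus strand), CDT1 (chr16:88803689-88803808, plus strand), GINS2 (chr16:85688935-85689054, minus strand), POLE (chr12:132687323-132687442, minus strand), PCNA (chr20:5126603-5126722, minus strand) and E2F1 (chr20:33686366-33686485, minus strand). For contrast, POLD1 (chr19:50384223-50384342, plus strand) and CHAF1B (chr21:36385292-36385411, plus strand) hold none of these words.
MCM2: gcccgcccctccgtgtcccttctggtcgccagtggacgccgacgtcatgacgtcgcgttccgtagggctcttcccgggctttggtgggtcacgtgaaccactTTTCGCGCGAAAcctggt
MCM7: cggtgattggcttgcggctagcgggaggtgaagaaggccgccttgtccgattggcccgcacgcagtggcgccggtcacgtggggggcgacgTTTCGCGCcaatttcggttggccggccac
CDC6: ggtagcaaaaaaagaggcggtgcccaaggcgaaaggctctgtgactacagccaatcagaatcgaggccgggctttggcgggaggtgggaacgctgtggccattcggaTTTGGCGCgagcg
CDT1: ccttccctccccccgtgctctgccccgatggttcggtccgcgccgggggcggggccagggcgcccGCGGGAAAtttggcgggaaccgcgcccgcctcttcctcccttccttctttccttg
GINS2: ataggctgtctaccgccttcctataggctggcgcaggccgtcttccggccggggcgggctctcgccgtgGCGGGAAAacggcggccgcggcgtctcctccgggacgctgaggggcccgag
POLE: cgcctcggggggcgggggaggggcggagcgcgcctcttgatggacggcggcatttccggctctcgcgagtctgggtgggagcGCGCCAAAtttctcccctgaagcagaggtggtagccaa
PCNA: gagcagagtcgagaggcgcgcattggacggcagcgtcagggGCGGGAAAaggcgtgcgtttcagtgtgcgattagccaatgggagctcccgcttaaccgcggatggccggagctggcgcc
E2F1: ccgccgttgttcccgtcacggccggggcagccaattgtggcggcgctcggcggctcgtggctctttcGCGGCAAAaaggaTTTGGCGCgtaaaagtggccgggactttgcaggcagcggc
POLD1: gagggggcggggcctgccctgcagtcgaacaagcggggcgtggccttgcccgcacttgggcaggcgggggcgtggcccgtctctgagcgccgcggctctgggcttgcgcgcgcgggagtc
CHAF1B: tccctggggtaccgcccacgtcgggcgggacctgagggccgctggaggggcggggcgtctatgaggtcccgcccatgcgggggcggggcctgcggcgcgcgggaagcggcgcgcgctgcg

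Of the 31 members with a RefSeq window of 300 bases (250 before the start), 19 held at least 1 of these words on either strand, which is 61.3%, against 908 of 27305 windows of all genes (3.33%). The 26 words in member windows lay mostly close to the start: 16 were within 100 bases before it and 4 began after it. There were 3 pairs of overlapping words, 1 of them in MCM2, where the capitals TTTCGCGCGAAA hold TTTCGCGC on both strands. A word is a match of letters and not a bound site. No window was found for MCM4, MCM5, GINS4, POLD3, RPA2, RPA3 and CCNE2.

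Recovered library sizes ran from 3.44 M to 19.4 M reads (median 12.87 M), and the lowest member value in any library was 23.4 normalised reads, so no member was near the counting limit. GATA2 itself averaged 27.2 ± 10.7 in knockdown and 157 ± 14.4 in control libraries of ARCaPM-DR (SD, n = 6 and 3). The averages were 1133 ± 356 in knockdown and 3601 ± 642 in control libraries of 22Rv1-DR, and 307 ± 58.6 in knockdown and 1105 ± 167 in control libraries of DU145-DR. Its log2 fold change was -2.56 ± 0.22 (limma adjusted p = 8.78e-05) in ARCaPM-DR, -1.71 ± 0.24 (limma adjusted p = 0.0256) in 22Rv1-DR and -1.85 ± 0.15 (limma adjusted p = 5.54e-05) in DU145-DR, and no knockdown library reached a control library of its line as deposited. In ARCaPM-DR all 9 GATA2 values were whole reads, but 7 of 9 in 22Rv1-DR and 5 of 9 in DU145-DR were not. In 22Rv1-DR 5 of the 6 knockdown values were among them, and each became whole once 300 to 800 was added, which puts them at 1401 to 1948; 1 control value, 3444, was whole as deposited. In DU145-DR all 3 control values became whole once 200 or 300 was taken off, which puts them at 725 to 955. The 6 knockdown values were 225 to 385 as deposited. The lowest and the highest of these were not whole, and no round amount was found for them. The whole knockdown values were 266 to 346. The size of the GATA2 change in these lines and its test rest on such values, and no source used here says how they arose. Epithelial markers were present in every line, though in DU145-DR only 4 of the 5 reached the level needed for testing. The androgen receptor target KLK3 was listed at 0 in all libraries of DU145-DR and ARCaPM-DR, the summed value of 5 blood markers was at most 26.1, and that of 4 endothelial markers at most 36.8. The summed value of 4 fibroblast markers was 1488 to 3105 in knockdown and 1355 to 1953 in control libraries of ARCaPM-DR, with PDGFRB at 0 in all. It was 692 to 1446 in knockdown and 719.9 to 3976 in control libraries of 22Rv1-DR, and 71.6 to 136 in knockdown and 146 to 180.0 in control libraries of DU145-DR, with COL1A2 and DCN at 0 in all. That of 4 mesenchymal markers was highest in ARCaPM-DR, at 34900 to 50750 in knockdown and 42040 to 58500 in control libraries. The sum does not hold for each marker. In control libraries 2 of the 4 were called higher and 2 lower in ARCaPM-DR than in 22Rv1-DR. Against DU145-DR 3 were called higher and 0 lower. The part of these markers in the results was not tested. In bulk RNA, fewer cells in S phase and less RNA per cell cannot be told apart.

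Only 36 of the 38 members held whole reads in every library. MCM2 in replicates 1 and 2 and RPA3 in replicates 2 and 3 of the 22Rv1-DR controls did not, and each of these values became a whole number of reads once a round amount was taken off, 500 for MCM2 and 300 for RPA3. No source used here says how these values arose. Without those amounts the MCM2 controls were 831, 499 and 684 and the RPA3 controls 362, 239 and 165. The tests of these genes in 22Rv1-DR are given both ways.

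After GATA2 knockdown, few members passed an adjusted p under 0.05. Counting both directions, the share that passed in ARCaPM-DR was near that of all genes, and in DU145-DR it was below it. In ARCaPM-DR, 7 of 38 members fell and 0 rose at an adjusted p under 0.05, beside 8.62% of all tested genes lower and 9.86% higher. In DU145-DR, 2 fell and 1 rose, beside 7.98% and 8.72% of all genes. In 22Rv1-DR, 1 fell and 0 rose, beside 0.276% and 0.124%. That background rests on values that are not whole reads. Without the 58 genes that have such values, 1 of 13699 genes was lower and 0 were higher in 22Rv1-DR. RPA3, the member called there, and MCM2 are among those 58 genes, and 0 of the other members passed. The median log2 fold change of the members was -0.15 in ARCaPM-DR, -0.07 in DU145-DR and -0.33 in 22Rv1-DR, while that of all tested genes was -0.00 in ARCaPM-DR and DU145-DR and -0.02 in 22Rv1-DR. Of the 38 estimates 28 were below 0 in ARCaPM-DR, 25 in DU145-DR and 35 in 22Rv1-DR. Below 0 in all 3 lines were 18 members, and 0 were above 0 in all 3. Counts of this order follow from the single-line counts alone, so they do not by themselves show agreement between lines. With the replicate number as a block, which the pairing check allows in DU145-DR and 22Rv1-DR, 12 members fell and 3 rose in DU145-DR (19.2% and 19.6% of all genes), and 2 fell and 0 rose in 22Rv1-DR (0.741% and 0.465%). The block's calls in DU145-DR were CDT1, CHAF1B, E2F1, E2F2, GINS2, GINS4, LIG1, MCM10, MCM3, MCM7, POLE and RFC2 lower and CCNE2, CDC6 and GINS3 higher. Of these 15, CHAF1B, GINS2 and CDC6 also passed without the block. As shares of the 38 members, 18.4% fell in ARCaPM-DR. In DU145-DR 5.26% fell and 2.63% rose without the block, and 31.6% fell and 7.89% rose with it. In 22Rv1-DR 2.63% fell without the block and 5.26% with it.

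**Figure D1:**
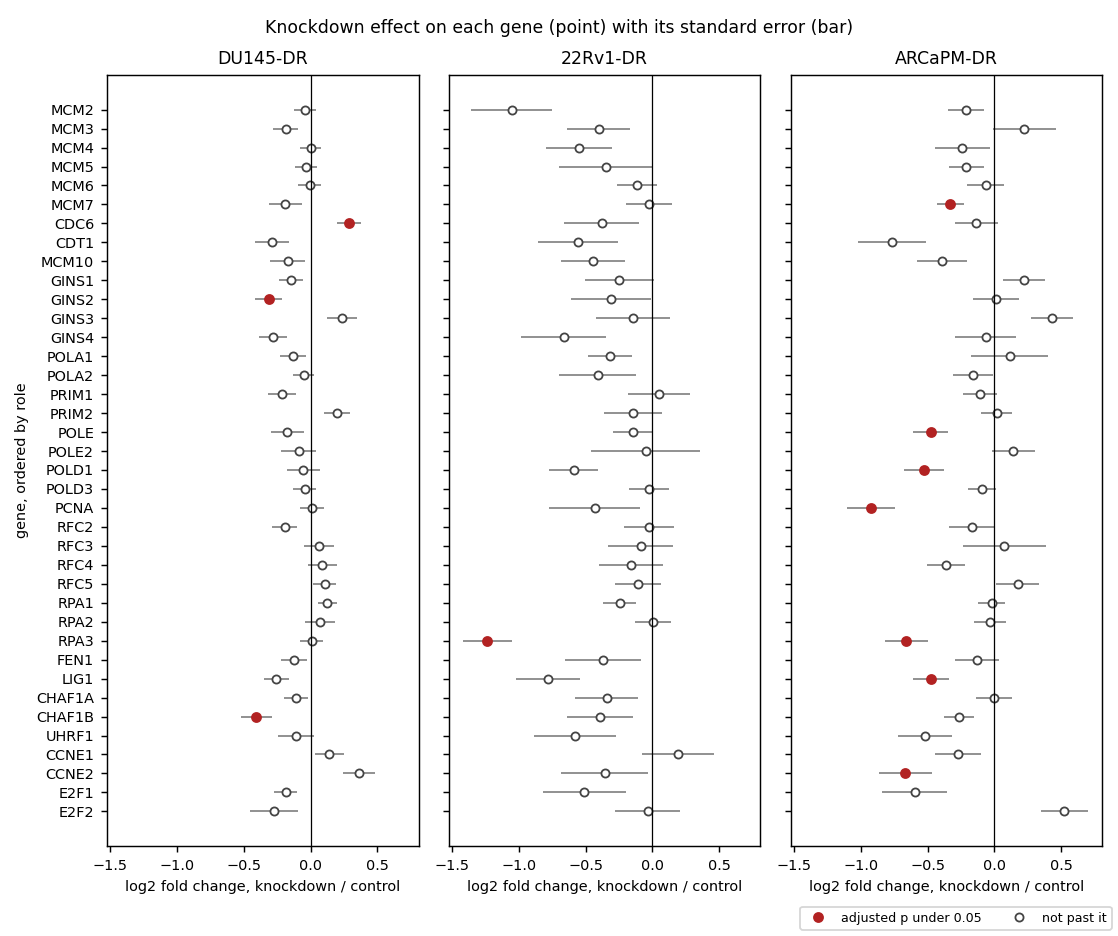
Log2 fold change of knockdown (both hairpins) over control for the 38 genes in each line, ordered by role, with the standard error as a bar; filled points passed an adjusted p under 0.05 and open points did not. The filled points are 7 in ARCaPM-DR, of which PCNA lay lowest at -0.93, 3 in DU145-DR, and RPA3 in 22Rv1-DR, which rests on control values that are not whole reads.

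Each gene's own libraries show where the changes sat. Values below are normalised read counts in the order of replicates 1, 2 and 3, which have no order in themselves, and fold changes are on the log2(value + 1) scale.

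Of the 6 subunits of the MCM2-7 helicase, 1 fell in ARCaPM-DR and 0 passed in DU145-DR or 22Rv1-DR without the block. With it, MCM3 and MCM7 fell in DU145-DR (adjusted p = 0.0232 and 0.0257). In ARCaPM-DR MCM7 had 4528, 4391 and 4174 with shGATA2a and 5254, 4971 and 4982 with shGATA2b, against 6782, 5579 and 5447 in the controls. All 6 knockdown libraries lay below all 3 controls, with a log2 change of -0.33 ± 0.10 (limma adjusted p = 0.0439). The other subunits ranged from -0.24 for MCM4 to 0.22 for MCM3 there, and from -0.19 to 0.00 over all 6 in DU145-DR. In 22Rv1-DR MCM2 had 619, 541 and 304 with shGATA2a and 635, 554 and 284 with shGATA2b, against 1331, 999 and 684 in the controls as deposited. All knockdown libraries lay below all controls, with replicate 3 of both hairpins lowest, and the log2 fold change was -1.06 ± 0.31 (limma adjusted p = 0.302); with the block MCM2 fell (adjusted p = 0.00642). With the round amounts taken off, the change was -0.50 ± 0.29 (limma adjusted p = 0.557), with 2 of 6 knockdown libraries below all controls. With the block as well, its adjusted p was 0.251. The other 5 subunits in 22Rv1-DR were all below 0, from -0.55 for MCM4 to -0.03 for MCM7.

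Of the 2 licensing factors, 1 rose in DU145-DR. CDC6, an ATPase that brings the helicase to origins, had 1262, 1195 and 1341 with shGATA2a and 1172, 1138 and 1319 with shGATA2b, against 922, 999 and 1119 in the controls of that line. In DU145-DR all 6 knockdown libraries were above all 3 controls, with a log2 change of 0.29 ± 0.09 (limma adjusted p = 0.0427). In the other lines CDC6 was at -0.38 ± 0.28 (limma adjusted p = 0.621) in 22Rv1-DR and -0.13 ± 0.16 (limma adjusted p = 0.594) in ARCaPM-DR. CDT1, the other loader of the helicase, was between 307 and 652 (median 431) in the 6 knockdown libraries, against 657, 965 and 611 in the controls of ARCaPM-DR, a log2 change of -0.77 ± 0.25 (limma adjusted p = 0.0629). The groups overlapped in 1 library only, shGATA2a replicate 2. In DU145-DR CDT1 was between 317 and 543 (median 409) in the 6 knockdown libraries, against 543, 554 and 437 in the controls, at -0.29 ± 0.13 (limma adjusted p = 0.146). In 22Rv1-DR it was between 184 and 489 (median 277) in the 6 knockdown libraries, against 392, 479 and 386 in the controls, at -0.56 ± 0.30 (limma adjusted p = 0.537). The groups overlapped in both lines. With the block CDT1 fell in DU145-DR (adjusted p = 0.00422).

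Of the 5 helicase activation genes, MCM10 and the 4 GINS subunits, 1 fell in DU145-DR. There GINS2 had 355, 363 and 331 with shGATA2a and 399, 393 and 322 with shGATA2b, against 459, 465 and 418 in the controls. Every knockdown library was below every control, and the log2 fold change was -0.31 ± 0.10 (limma adjusted p = 0.0479). GINS4 also had no overlap in DU145-DR, with between 408 and 526 (median 482) in the 6 knockdown libraries, against 543, 592 and 586 in the controls, at -0.28 ± 0.10 (limma adjusted p = 0.0784), and it fell with the block (adjusted p = 0.00657). GINS3 was on the other side of 0, at 0.24 ± 0.11 (limma adjusted p = 0.168) in DU145-DR and 0.43 ± 0.16 (limma adjusted p = 0.088) in ARCaPM-DR, where GINS2 was at 0.01 ± 0.18 (limma adjusted p = 0.972). MCM10 was between 492 and 728 (median 644) in the 6 knockdown libraries, against 1137, 661 and 747 in the controls of ARCaPM-DR, at -0.39 ± 0.19 (limma adjusted p = 0.169), and the highest control, replicate 1, stood apart from the other two. In 22Rv1-DR MCM10 was between 138 and 216 (median 187) in the 6 knockdown libraries, against 379, 195 and 201 in the controls, again with control replicate 1 highest. In DU145-DR it was between 1407 and 1941 (median 1563) in the 6 knockdown libraries, against 1597, 1719 and 2249 in the controls, and it fell with the block (adjusted p = 0.034).

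Of the 8 polymerase and primase genes, POLE and POLD1, the catalytic subunits of the leading-strand and lagging-strand polymerases, fell in ARCaPM-DR. POLE had 2554, 2593 and 2103 with shGATA2a and 2302, 2234 and 1893 with shGATA2b, against 3815, 3013 and 2740.5 in the controls. POLD1 had 651, 679.8 and 459 with shGATA2a and 762, 758 and 617 with shGATA2b, against 1038, 854 and 908 in the controls. For both genes every knockdown library was below every control, and the log2 fold changes were -0.48 ± 0.13 (limma adjusted p = 0.032) and -0.53 ± 0.15 (limma adjusted p = 0.0356). In 22Rv1-DR POLD1 had 488, 554 and 382 with shGATA2a and 520.4, 503 and 409 with shGATA2b, against 655, 602 and 914 in the controls. These groups did not overlap either, but the change was -0.59 ± 0.18 (limma adjusted p = 0.327), with control replicate 3 highest by far. In DU145-DR POLE was at -0.18 ± 0.12 (limma adjusted p = 0.353), and it fell with the block (adjusted p = 0.0416). The primase subunits PRIM1 and PRIM2, the polymerase alpha subunits POLA1 and POLA2 and the accessory subunits POLE2 and POLD3 did not pass in any line, and ranged from -0.41 for POLA2 in 22Rv1-DR to 0.20 for PRIM2 in DU145-DR.

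PCNA, the sliding clamp that holds polymerases on DNA, moved most among the 38 genes of ARCaPM-DR. It had 415, 299.6 and 385 with shGATA2a and 339.6, 372 and 428 with shGATA2b, against 943, 562 and 660.3 in the controls. The highest knockdown library, at 428, was below the lowest control, at 562, and the log2 fold change was -0.93 ± 0.18 (limma adjusted p = 0.00645). In DU145-DR PCNA had 1866, 2066 and 1932 with shGATA2a and 2089, 2115 and 1681 with shGATA2b, against 1844, 2061 and 1908 in the controls, at 0.01 ± 0.09 (limma adjusted p = 0.945). In 22Rv1-DR it had 423, 399.5 and 273 with shGATA2a and 463, 464 and 263 with shGATA2b, against 879, 560.5 and 256 in the controls. There the controls spanned the whole range of the line, and the change was -0.43 ± 0.34 (limma adjusted p = 0.647). The difference of the PCNA effect, ARCaPM-DR minus DU145-DR, was -0.94 ± 0.36 (limma adjusted p = 0.123), and with the replicate block its adjusted p was 0.00411. The clamp loader genes RFC2, RFC3, RFC4 and RFC5 did not pass in any line without the block, under which RFC2 fell in DU145-DR (adjusted p = 0.0347), and ranged from -0.37 for RFC4 to 0.18 for RFC5, both in ARCaPM-DR.

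RPA3, the smallest subunit of the single-strand binding protein RPA, fell in ARCaPM-DR and, as deposited, in 22Rv1-DR. In ARCaPM-DR it had 297, 315 and 451 with shGATA2a and 289.9, 261 and 287 with shGATA2b, against 583, 463 and 443 in the controls. Replicate 3 of shGATA2a was the one knockdown library that reached the controls, and it was the smallest of all libraries at 3.44 M reads. The log2 fold change was -0.66 ± 0.16 (limma adjusted p = 0.0181). In 22Rv1-DR RPA3 had 179, 198 and 178 with shGATA2a and 229, 214 and 152 with shGATA2b, against 362, 539 and 465 in the controls as deposited, without overlap, and the change was -1.24 ± 0.18 (limma adjusted p = 0.0256). With the round amounts taken off, only 1 of 6 knockdown libraries was below all controls and the change was -0.35 ± 0.23 (limma adjusted p = 0.593), with an adjusted p of 0.298 under the block. In DU145-DR RPA3 was at 0.01 ± 0.09 (limma adjusted p = 0.967). RPA1 and RPA2, the other subunits of the same complex, did not pass in any line. RPA1 was nevertheless between 1478 and 1631 (median 1588) in the 6 knockdown libraries, against 2098, 1749 and 1774 in the controls of 22Rv1-DR, with no overlap, at -0.25 ± 0.12 (limma adjusted p = 0.529).

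LIG1, the ligase that seals Okazaki fragments, fell in ARCaPM-DR. It had 568, 544 and 501 with shGATA2a and 556, 498 and 405 with shGATA2b, against 834, 673 and 635 in the controls. Each knockdown library was below each control, with a log2 change of -0.48 ± 0.14 (limma adjusted p = 0.0362). In 22Rv1-DR LIG1 had 272, 406 and 258 with shGATA2a and 378, 392 and 257 with shGATA2b, against 584, 386 and 749 in the controls. Control replicate 2 lay inside the knockdown range, and the change was -0.78 ± 0.24 (limma adjusted p = 0.327). In DU145-DR it was at -0.26 ± 0.09 (limma adjusted p = 0.073), and it fell with the block (adjusted p = 0.0105). FEN1, the nuclease that trims the fragments first, was at -0.37 in 22Rv1-DR, -0.13 in ARCaPM-DR and -0.12 in DU145-DR and did not pass in any.

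The chromatin genes are CHAF1A and CHAF1B, subunits of the histone chaperone CAF-1, and UHRF1, which helps copy DNA methylation. CHAF1B fell in DU145-DR, where it had 341, 363 and 465 with shGATA2a and 371, 427 and 433 with shGATA2b, against 477, 529 and 583 in the controls. Replicate 3 of shGATA2a, at 465, was the highest knockdown library and was still below the lowest control, at 477. The log2 fold change was -0.41 ± 0.12 (limma adjusted p = 0.0315). In ARCaPM-DR CHAF1B was between 330.3 and 377 (median 364) in the 6 knockdown libraries, against 489, 433 and 387 in the controls, again without overlap, at -0.27 ± 0.11 (limma adjusted p = 0.125). In 22Rv1-DR it was between 84 and 143 (median 121) in the 6 knockdown libraries, against 211, 145 and 112 in the controls, at -0.40 ± 0.25 (limma adjusted p = 0.573). UHRF1 was at -0.52 ± 0.20 (limma adjusted p = 0.103) in ARCaPM-DR and -0.58 ± 0.31 (limma adjusted p = 0.533) in 22Rv1-DR, and CHAF1A was at -0.00 ± 0.14 (limma adjusted p = 0.996) in ARCaPM-DR.

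Among the G1/S control genes, the cyclin E gene CCNE2 fell in ARCaPM-DR and lay on the other side of 0 in DU145-DR. In ARCaPM-DR it had 107, 79.6 and 117 with shGATA2a and 64.7, 70.2 and 95.3 with shGATA2b, against 168, 137 and 116 in the controls. Replicate 3 of shGATA2a, the smallest library, was just above the lowest control, at 117 against 116. The log2 fold change was -0.67 ± 0.20 (limma adjusted p = 0.0445). In DU145-DR CCNE2 had 381, 420.4 and 506 with shGATA2a and 479.9, 389 and 459 with shGATA2b, against 315, 314 and 396 in the controls. The groups overlapped there through control replicate 3, the change was 0.36 ± 0.12 (limma adjusted p = 0.0591), and with the block CCNE2 rose (adjusted p = 0.00182). The difference of its effect, ARCaPM-DR minus DU145-DR, was -1.03 ± 0.36 (limma adjusted p = 0.0872), and with the replicate block its adjusted p was 0.0122. CCNE1, the other cyclin E, was at -0.27 ± 0.17 (limma adjusted p = 0.3) in ARCaPM-DR, 0.19 ± 0.27 (limma adjusted p = 0.803) in 22Rv1-DR and 0.14 ± 0.11 (limma adjusted p = 0.408) in DU145-DR. The activator E2F1 was between 268 and 519 (median 417) in the 6 knockdown libraries, against 654, 736 and 436 in the controls of ARCaPM-DR, at -0.60 ± 0.24 (limma adjusted p = 0.112). In 22Rv1-DR E2F1 was between 82 and 205 (median 144) in the 6 knockdown libraries, against 255, 173 and 146 in the controls. In DU145-DR it was between 520.3 and 657 (median 585) in the 6 knockdown libraries, against 661, 694 and 639 in the controls. It passed in neither line, though with the block it fell in DU145-DR (adjusted p = 0.0377). E2F2, a second activator, was between 116 and 203 (median 175) in the 6 knockdown libraries, against 140.1, 106 and 93.4 in the controls of ARCaPM-DR, at 0.52 ± 0.18 (limma adjusted p = 0.0683), the highest estimate of the 38 genes there.

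**Figure D2:**
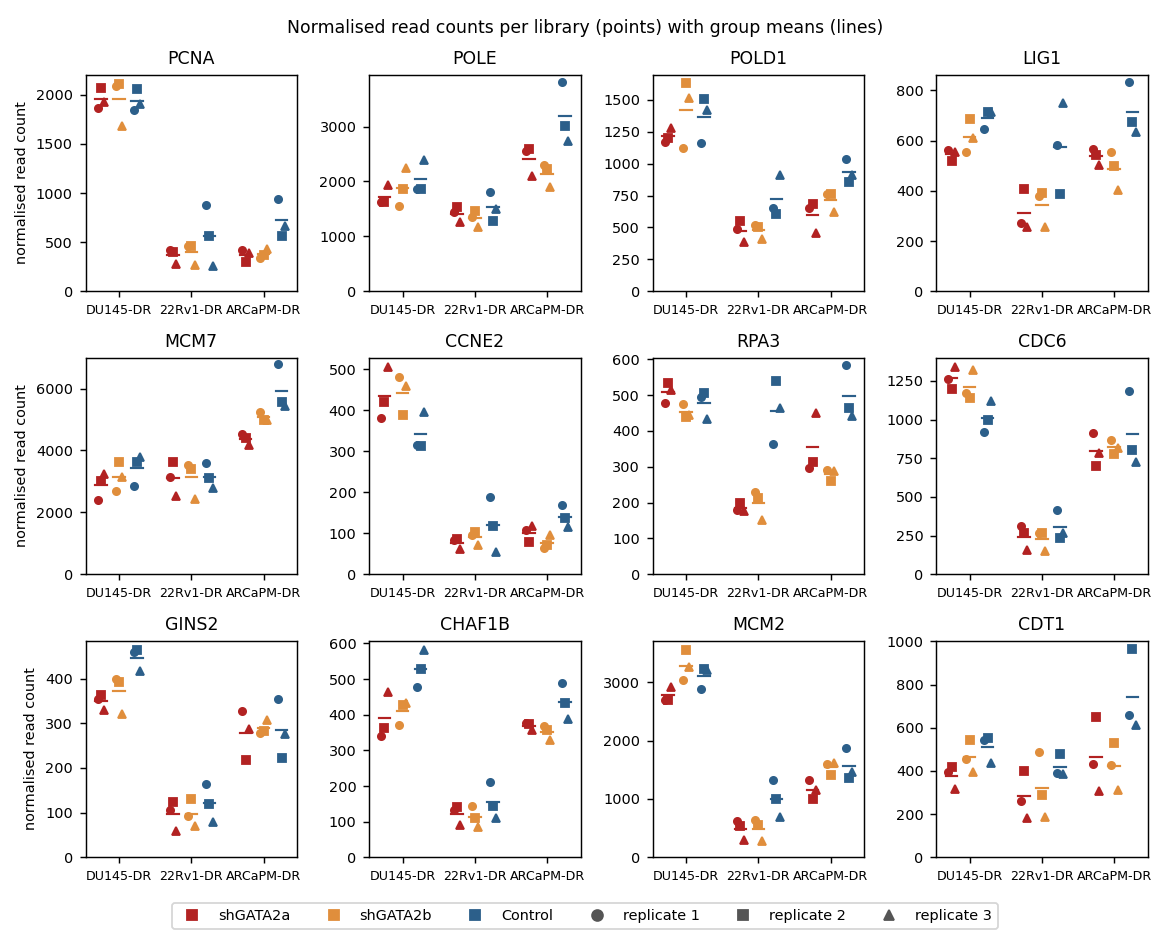
Normalised read counts of 12 genes in every library, by line; colours are shGATA2a, shGATA2b and Control from left to right within a line, marker shapes are replicate numbers and short lines are group means. In ARCaPM-DR all knockdown points of PCNA, POLE, POLD1, LIG1 and MCM7 lie below all control points, and in DU145-DR the knockdown points of CDC6 lie above the controls.

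Most calls in DU145-DR and ARCaPM-DR lay close to the threshold. Leaving out 1 library at a time left 1 to 11 members called in ARCaPM-DR, with 1 without control replicate 1, 2 without shGATA2a replicate 1, 3 without control replicate 2, control replicate 3, shGATA2b replicate 1 or shGATA2b replicate 3, and 11 without shGATA2a replicate 2. PCNA was the one call kept in all 9 of these fits (highest adjusted p = 0.0339), and RPA3 was lost only without control replicate 1 (adjusted p = 0.0972). POLE was lost in 5, POLD1 and CCNE2 in 6, LIG1 in 7 and MCM7 in 8 of 9 fits, with adjusted p up to 0.187. In DU145-DR 0 members were called without control replicate 1, control replicate 2 or shGATA2a replicate 2, 1 without shGATA2a replicate 1, shGATA2a replicate 3 or shGATA2b replicate 1, and 5 without shGATA2b replicate 2. GINS2 and CHAF1B were lost in 6 and CDC6 in 7 of the 9 fits there, with adjusted p up to 0.209. The RPA3 call in 22Rv1-DR was kept only without control replicate 3.

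Counting members whose groups did not overlap gave much the same picture. In ARCaPM-DR 6 members (MCM7, PCNA, POLE, POLD1, LIG1 and CHAF1B) had every knockdown library below every control, beside 10% of all tested genes, and 0 lay above, beside 11%. In DU145-DR the counts were 3 below (GINS2, GINS4 and CHAF1B) and 1 above (CDC6), beside 8.74% and 10%. Both are smaller shares of the members than of all genes. In 22Rv1-DR they were 4 below (MCM2, POLD1, RPA1 and RPA3) and 0 above, beside 4.04% and 2.9%, and with the round amounts taken off MCM2 and RPA3 overlapped.

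Each hairpin set against the control shared the same control libraries. With shGATA2a, 3 members fell and 0 rose in ARCaPM-DR, beside 5.63% of all genes lower and 7.2% higher. They were PCNA at -0.96 ± 0.21 (limma adjusted p = 0.0148), POLD1 at -0.66 ± 0.17 (limma adjusted p = 0.0319) and MCM7 at -0.44 ± 0.11 (limma adjusted p = 0.0322). With shGATA2b, 5 fell in ARCaPM-DR, beside 7.21% of all genes lower. They were RPA3 at -0.82 ± 0.18 (limma adjusted p = 0.0158), PCNA at -0.90 ± 0.21 (limma adjusted p = 0.0179), CCNE2 at -0.86 ± 0.23 (limma adjusted p = 0.0343), POLE at -0.56 ± 0.15 (limma adjusted p = 0.035) and LIG1 at -0.56 ± 0.16 (limma adjusted p = 0.041). E2F2 rose with shGATA2b in ARCaPM-DR, at 0.80 ± 0.21 (limma adjusted p = 0.0297), beside 7.28% of all genes higher. It had 169, 116 and 120.5 with shGATA2a and 203, 198 and 182 with shGATA2b, against 140.1, 106 and 93.4 in the controls; all shGATA2b libraries were above all controls, while shGATA2a replicates 2 and 3 lay within the control range. In DU145-DR shGATA2a gave CDC6 higher at 0.32 ± 0.10 (limma adjusted p = 0.0498) and CHAF1B and LIG1 lower at -0.45 ± 0.13 (limma adjusted p = 0.0386) and -0.34 ± 0.11 (limma adjusted p = 0.0441), beside 8.28% of all genes higher and 7.78% lower. With shGATA2b 0 members passed in DU145-DR (3.29% of all genes higher, 2.52% lower) and 5 had an unadjusted p under 0.05. Here and below, counts at an unadjusted p have no share of all genes beside them and are not read as a result. In 22Rv1-DR 0 members passed with either hairpin, beside 0 genes with shGATA2a and 0.00727% of all genes with shGATA2b, and 4 had an unadjusted p under 0.05 with each. With the replicate block 13 members fell and 3 rose with shGATA2a in DU145-DR (18.5% and 19.5% of all genes), and 3 fell and 2 rose with shGATA2b (13.3% and 13%). In 22Rv1-DR MCM2 and RPA3 fell and 0 rose under the block, beside 0.4% and 0.204% of all genes with shGATA2a and 0.342% and 0.138% with shGATA2b. With the round amounts taken off, the blocked adjusted p was 0.392 for MCM2 and 0.397 for RPA3 with shGATA2a, and 0.371 and 0.451 with shGATA2b. Over both hairpins and all lines 10 members passed in at least 1 contrast, and 4 did without control replicate 1 or shGATA2b replicate 1 of ARCaPM-DR.

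Between the hairpins, shGATA2b minus shGATA2a, 0 members passed in any line by limma without the block; 3 in ARCaPM-DR, 0 in 22Rv1-DR and 2 in DU145-DR had an unadjusted p under 0.05. These were MCM2 and MCM5 in DU145-DR, at 0.24 ± 0.09 (limma adjusted p = 0.786) and 0.21 ± 0.09 (limma adjusted p = 0.825), and MCM2, MCM5 and E2F2 in ARCaPM-DR, at 0.42 ± 0.15 (limma adjusted p = 0.301), 0.52 ± 0.15 (limma adjusted p = 0.171) and 0.54 ± 0.21 (limma adjusted p = 0.338). All 6 helicase estimates were above 0 in both of these lines, with medians of 0.14 and 0.31. In DU145-DR so were all estimates of the chromatin, G1/S control and Okazaki fragment genes, with medians of 0.117, 0.155 and 0.175. The remaining roles there, and all other roles in ARCaPM-DR, had estimates on both sides of 0. Over all genes 0% were called in DU145-DR and 22Rv1-DR and 0.206% higher and 0.596% lower in ARCaPM-DR. With the block 1 member, E2F2, was higher with shGATA2b in DU145-DR (adjusted p = 0.0353), beside 166 genes higher and 124 lower of 13362, and 0 members and 0 genes passed in 22Rv1-DR. In ARCaPM-DR the pairing check was not passed. There the block gave MCM2, among others, as higher with shGATA2b (limma adjusted p = 0.0086), and these calls are not read as a result.

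Averaged over the 3 lines, 10 members fell and 0 rose, beside 9.31% and 9.06% of all genes. They were RPA3 at -0.63 ± 0.09 (limma adjusted p = 1.27e-05), LIG1 at -0.51 ± 0.10 (limma adjusted p = 0.00108), POLD1 at -0.39 ± 0.09 (limma adjusted p = 0.00394), CDT1 at -0.54 ± 0.15 (limma adjusted p = 0.0152), MCM2 at -0.44 ± 0.13 (limma adjusted p = 0.0174), CHAF1B at -0.36 ± 0.10 (limma adjusted p = 0.0184), POLE at -0.27 ± 0.08 (limma adjusted p = 0.0223), PCNA at -0.45 ± 0.15 (limma adjusted p = 0.0336), E2F1 at -0.43 ± 0.15 (limma adjusted p = 0.0406) and MCM10 at -0.34 ± 0.12 (limma adjusted p = 0.0477). Each of the 9 roles had at least 1 of them, but no primase, polymerase alpha, RFC or GINS gene was among them. With the round amounts taken off, 9 fell: MCM2 was at -0.25 ± 0.12 (limma adjusted p = 0.154) and RPA3 at -0.33 ± 0.10 (limma adjusted p = 0.0264). With the replicate block in every line 17 fell and 1, GINS3, rose (18.6% and 17.6% of all genes). When genes with a value not whole were left out, MCM2 and RPA3 among them, 15 fell. Leaving out 1 library left 6 to 11, with 6 without control replicate 3 of DU145-DR, control replicate 1 of 22Rv1-DR or control replicate 1 of ARCaPM-DR. RPA3, LIG1, POLD1, CDT1, MCM2 and CHAF1B were kept in all 27 of these fits, while POLE was lost in 3, PCNA in 8, E2F1 in 15 and MCM10 in 16.

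The test of the difference between lines passed for 1 member as deposited. The RPA3 effect in 22Rv1-DR minus that in DU145-DR was -1.24 ± 0.21 (limma adjusted p = 0.00326), beside 0.621% of all genes lower and 0.464% higher in that contrast. With the round amounts taken off it was -0.36 ± 0.25 (limma adjusted p = 0.584), and 0 members passed. For ARCaPM-DR minus DU145-DR and ARCaPM-DR minus 22Rv1-DR 0 members passed by limma (3.71% higher and 3.41% lower, and 2.19% higher and 1.2% lower, of all genes), and 5 and 2 had an unadjusted p under 0.05. With the replicate block in every line 11 members passed in at least 1 of the contrasts: 5 lower and 0 higher for 22Rv1-DR minus DU145-DR (5.62% and 4.65% of all genes), 0 lower and 5 higher for ARCaPM-DR minus 22Rv1-DR (6.47% and 8.44%), and 3 lower and 1 higher for ARCaPM-DR minus DU145-DR (9.63% and 10.9%). Leaving out 1 library gave 2 members without control replicate 1 of 22Rv1-DR and 4 without its control replicate 3, otherwise 1, and RPA3 was kept in all 27 fits. With the block and without the genes that had values not whole, 9 members passed. Without those genes and without the block 0 did, and RPA3 was itself among the genes left out. With all genes, the block's calls included CCNE2, PCNA and E2F2 for ARCaPM-DR minus DU145-DR, with adjusted p of 0.0122, 0.00411 and 0.00268.

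The 22Rv1-DR estimates were below 0 almost throughout, and the libraries there moved together. Against the mean of all 9 libraries of the line, all 38 members were above it in control replicate 1, by a median of 0.60 on the log2 scale. In replicate 3, 36 members of shGATA2a and 38 of shGATA2b were below it, by medians of -0.51 and -0.55, while control replicate 3 was near it at -0.02. The median of all tested genes moved by at most 0.05 in any library of the line, and that of 30 mitotic genes was 0.66 in control replicate 1 and -0.31 and -0.26 in replicate 3 of shGATA2a and shGATA2b. Within a replicate number, the mean of the hairpins minus the control had a member median of -0.52 for number 1, -0.04 for number 2 and -0.36 for number 3, with 36, 20 and 26 members below 0. Without the 3 libraries numbered 3, the members' median knockdown effect in 22Rv1-DR was -0.23, 34 members were below 0, and 0 passed.

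In ARCaPM-DR control replicate 1 stood above the line's mean for 36 of 38 members, by a median of 0.41, while mitotic genes were at 0.25 there. The within-number medians were -0.38, -0.11 and 0.02, with 34, 25 and 18 members below 0. In DU145-DR they were -0.03, -0.07 and -0.14, with 24, 26 and 29 below 0, and no library stood as far off. Among all tested genes between 48.9% and 52% were below 0 in each of these 9 comparisons. The part of single libraries in the shared shift was not tested beyond leaving each out.

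**Figure D3:**
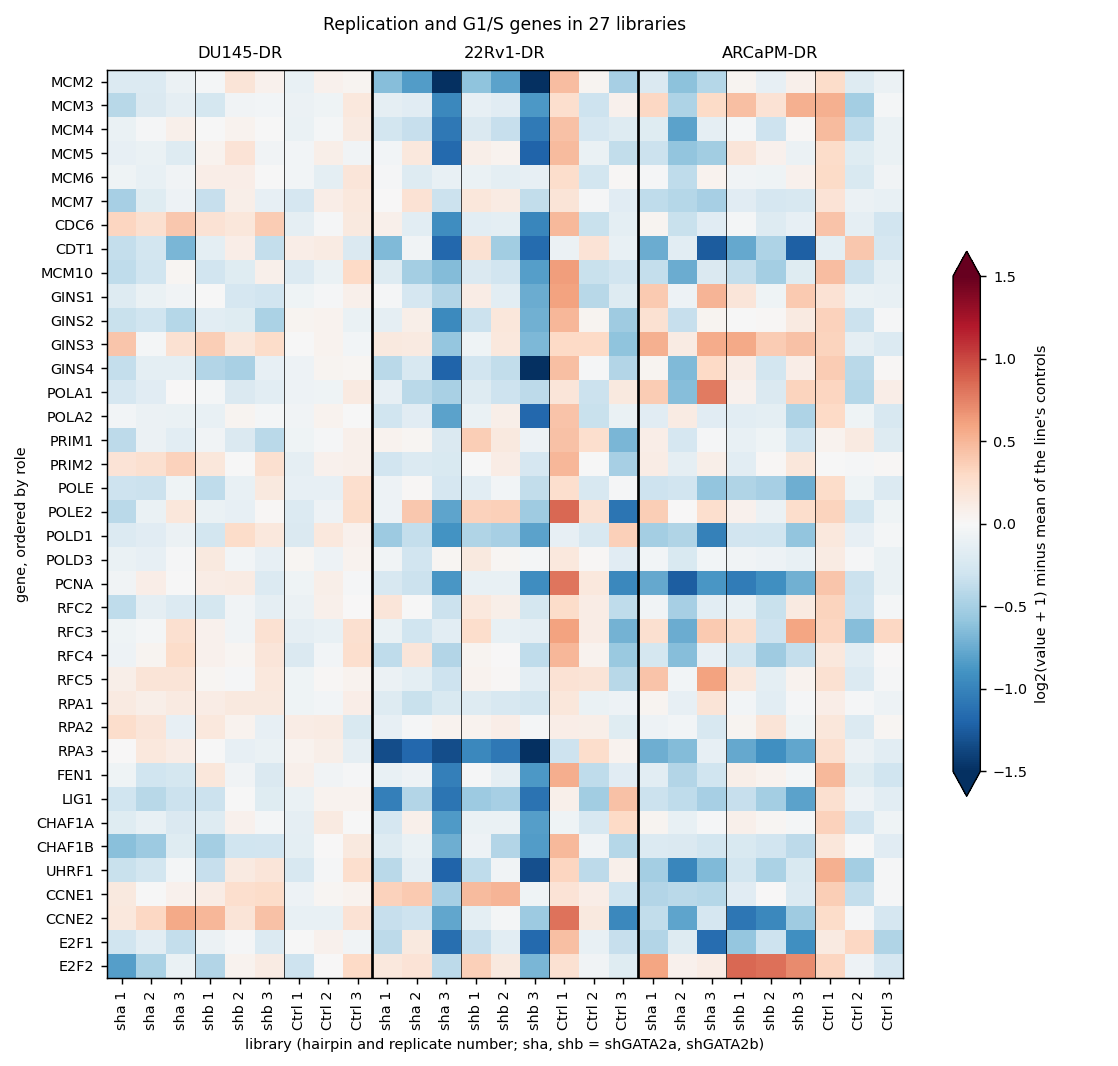
Log2(value + 1) of the 38 genes in each of the 27 libraries minus the mean of the line's 3 controls, red above and blue below; libraries run shGATA2a, shGATA2b, Control within a line and genes are ordered by role. Replicate 3 of both hairpins in 22Rv1-DR is blue for most genes, control replicate 1 of 22Rv1-DR and of ARCaPM-DR is red for most genes, and PCNA is blue in all 6 knockdown libraries of ARCaPM-DR.

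**Figure D4:**
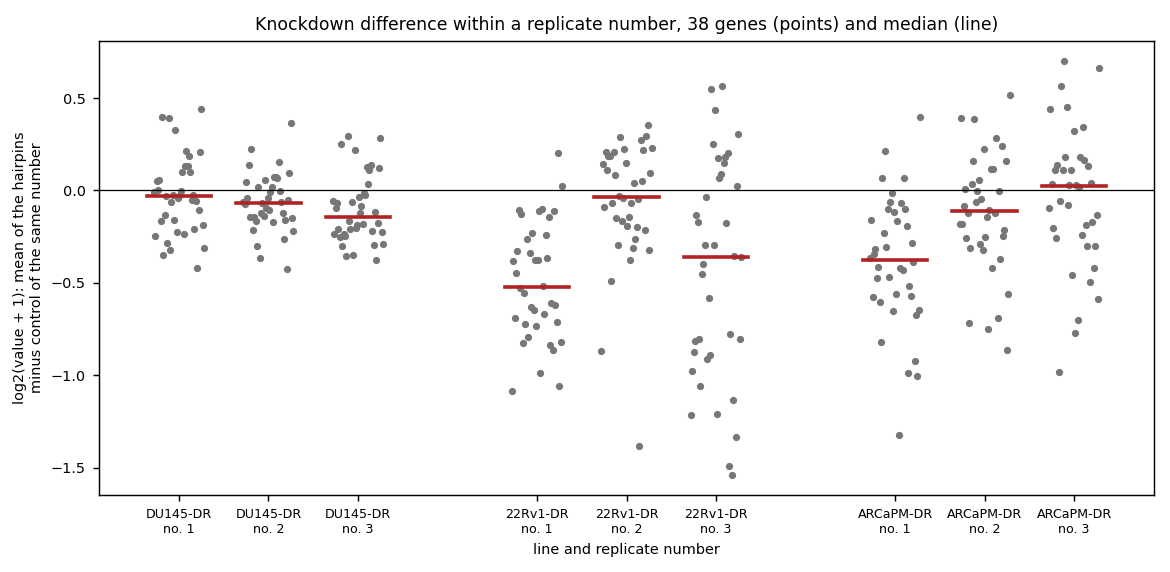
Mean of both hairpins minus the control of the same replicate number, on the log2(value + 1) scale, for each of the 38 genes (points) with the median (red line), by line and number. The 22Rv1-DR medians are -0.52, -0.04 and -0.36 and the ARCaPM-DR medians -0.38, -0.11 and 0.02, and those of number 2 in 22Rv1-DR and number 3 in ARCaPM-DR lie nearest 0 within their lines.

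At baseline the lines differed far more than knockdown and control did. In control libraries 33 of 38 members (86.8%) were lower in 22Rv1-DR than in DU145-DR and 0 were higher, beside 33.7% and 36.7% of all genes, with a median log2 difference of -1.67. In ARCaPM-DR 29 members were higher than in 22Rv1-DR and 1, E2F2, was lower, beside 31.9% and 38.3%, with a median of 1.03. ARCaPM-DR stood between them: against DU145-DR, 17 members were lower and 3 higher, beside 31.1% and 28.8%, with a median of -0.34. Mean control levels were lowest in 22Rv1-DR for 37 of 38 members, without overlap with the next line for 27, and highest in DU145-DR for 25, without overlap for 20.

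MCM6 gave the smallest p of these genes between 22Rv1-DR and DU145-DR. Its control values were 624, 428 and 524 in 22Rv1-DR, 2393, 1674 and 1903 in ARCaPM-DR, against 3314, 3073 and 3866 in DU145-DR. The 3 lines did not overlap, and 22Rv1-DR minus DU145-DR was -2.71 ± 0.14 (limma adjusted p = 1.01e-14). MCM10 had 379, 195 and 201 in 22Rv1-DR, 1137, 661 and 747 in ARCaPM-DR, against 1597, 1719 and 2249 in DU145-DR, a difference of -2.89 ± 0.24 (limma adjusted p = 6.44e-11) for 22Rv1-DR minus DU145-DR. MCM3, POLD3 and GINS1 were also among the 5 with the smallest p, at -2.68, -1.52 and -2.33.

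UHRF1 differed most in size, with control values of 298, 183 and 252 in 22Rv1-DR, 2981, 1448 and 2028 in ARCaPM-DR, against 1611, 1873 and 2258 in DU145-DR. It was 22Rv1-DR that stood apart, at -2.98 ± 0.29 (limma adjusted p = 1.48e-09) against DU145-DR, while ARCaPM-DR and DU145-DR overlapped, at 0.12 ± 0.29 (limma adjusted p = 0.744). The members whose 22Rv1-DR controls did not pass against DU145-DR were MCM7, CDT1, POLA1, LIG1 and RPA3. With the round amounts taken off, RPA3 was lower in 22Rv1-DR as well, at -0.97 ± 0.21 (limma adjusted p = 0.000202), and MCM2 was at -2.24 ± 0.24 (limma adjusted p = 1.11e-08) in place of -1.68 ± 0.25 (limma adjusted p = 2.22e-06). ARCaPM-DR minus 22Rv1-DR was then 1.02 ± 0.21 (limma adjusted p = 0.00012) for RPA3 and 1.23 ± 0.24 (limma adjusted p = 7.72e-05) for MCM2, in place of 0.13 ± 0.17 (limma adjusted p = 0.507) and 0.67 ± 0.25 (limma adjusted p = 0.0208).

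Not all helicase subunits followed the same order of lines. MCM7 had 3582, 3096 and 2785 in 22Rv1-DR, 6782, 5579 and 5447 in ARCaPM-DR, against 2858, 3641 and 3788 in DU145-DR, so that ARCaPM-DR was highest, at 0.80 ± 0.16 (limma adjusted p = 0.00019) against DU145-DR, while MCM2, MCM3, MCM4, MCM5 and MCM6 were lower in ARCaPM-DR than in DU145-DR, at -0.79 to -1.77. POLE and RFC5 were the other genes that passed as higher in ARCaPM-DR than in DU145-DR without the block, at 0.64 ± 0.16 (limma adjusted p = 0.00131) and 0.72 ± 0.17 (limma adjusted p = 0.000572). With the block CDT1 and GINS4 passed as well (adjusted p = 0.0231 and 0.0138). E2F2 was the one member lowest in ARCaPM-DR, with 207, 169.6 and 156 in 22Rv1-DR, 140.1, 106 and 93.4 in ARCaPM-DR, against 290.3, 364 and 446 in DU145-DR, whereas E2F1 had 255, 173 and 146 in 22Rv1-DR, 654, 736 and 436 in ARCaPM-DR, against 661, 694 and 639 in DU145-DR. PCNA had 879, 560.5 and 256 in 22Rv1-DR, 943, 562 and 660.3 in ARCaPM-DR, against 1844, 2061 and 1908 in DU145-DR. Here 22Rv1-DR and ARCaPM-DR overlapped, and DU145-DR was far above both.

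**Figure D5:**
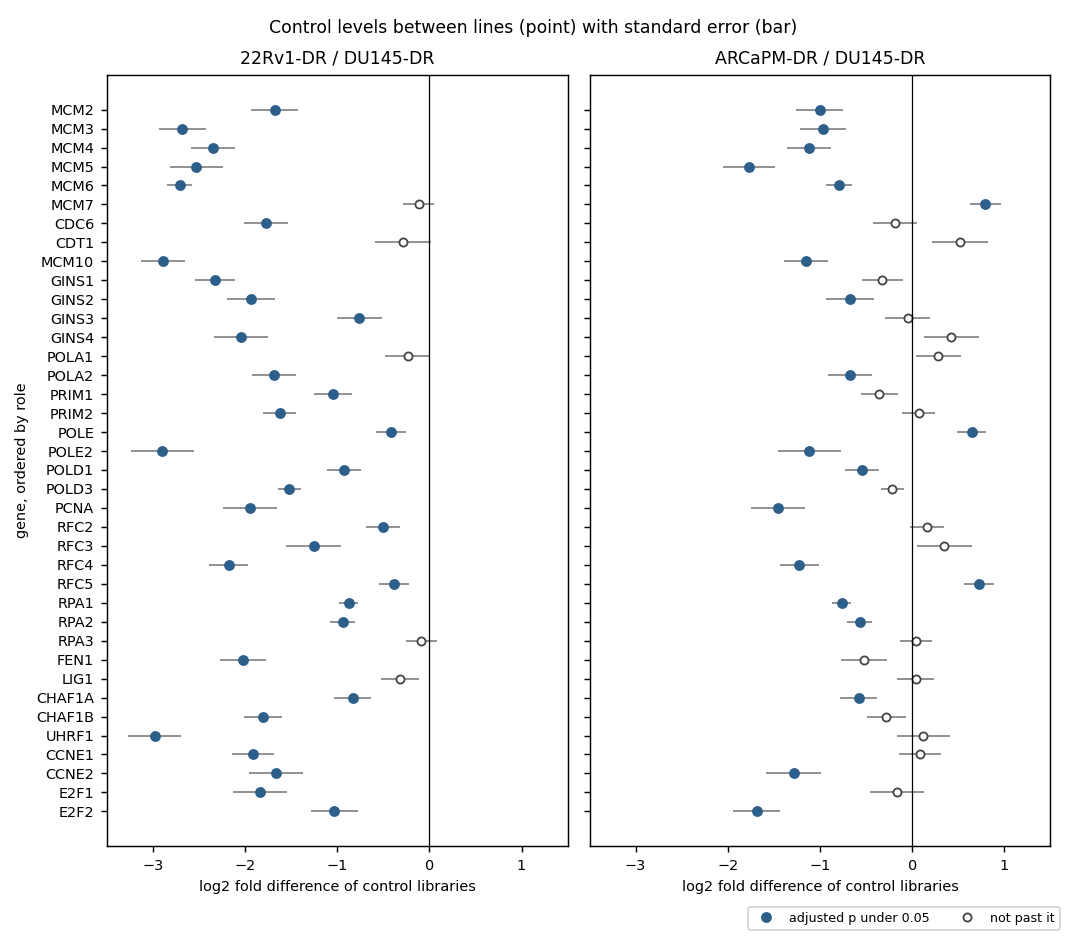
Log2 difference between the control libraries of 22Rv1-DR and DU145-DR (left) and of ARCaPM-DR and DU145-DR (right) for the 38 genes, with the standard error as a bar; filled points passed an adjusted p under 0.05. All 38 points of the left panel are below 0, down to -2.98 for UHRF1, and the right panel runs from -1.77 for MCM5 to 0.80 for MCM7.

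The replication genes outside the 38 moved in both directions. Of 68 further genes of licensing, cyclins, E2F factors, fork factors, nucleotide supply and chromatin, 10 fell and 5 rose in ARCaPM-DR, 3 fell and 6 rose in DU145-DR (67 tested) and 1 fell and 0 rose in 22Rv1-DR, beside the shares of all genes given above. With the replicate block 14 fell and 14 rose in DU145-DR, and 2 fell in 22Rv1-DR. Their median log2 fold changes were -0.06, 0.01 and -0.18. In ARCaPM-DR DUT, which removes dUTP from the nucleotide pool, averaged 198 ± 59 in knockdown and 733 ± 131 in control libraries (SD, n = 6 and 3), at -1.94 ± 0.22 on the log2 scale (limma adjusted p = 0.000404). In 22Rv1-DR DUT averaged 355 ± 38 in knockdown and 786 ± 149 in control libraries (SD, n = 6 and 3), at -1.13 ± 0.16 on the log2 scale (limma adjusted p = 0.0256). Its own values were whole reads, but without the genes that had values not whole its adjusted p was 0.0766, and 0.044 with the block as well. In ARCaPM-DR SLBP, which binds histone mRNA in S phase, averaged 416 ± 63.5 in knockdown and 849.7 ± 111 in control libraries (SD, n = 6 and 3), at -1.03 ± 0.15 on the log2 scale (limma adjusted p = 0.00168). Both DUT and SLBP fell by more than any of the 38 genes in ARCaPM-DR.

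The cell cycle inhibitor gene CDKN1B rose in ARCaPM-DR and averaged 1617 ± 299 in knockdown and 844 ± 119.6 in control libraries (SD, n = 6 and 3), at 0.93 ± 0.11 on the log2 scale (limma adjusted p = 0.000496). CCND2, a D-type cyclin of G1, also rose there and averaged 1107 ± 153 in knockdown and 566 ± 60.3 in control libraries (SD, n = 6 and 3), at 0.96 ± 0.13 on the log2 scale (limma adjusted p = 0.00113). In DU145-DR MYBL2, a transcription factor and itself an E2F target, averaged 1207 ± 242 in knockdown and 2560.0 ± 322 in control libraries (SD, n = 6 and 3), at -1.10 ± 0.15 on the log2 scale (limma adjusted p = 0.000906). TFDP2, a binding partner of E2F factors, averaged 1399 ± 115 in knockdown and 2014 ± 139.5 in control libraries (SD, n = 6 and 3), at -0.53 ± 0.09 on the log2 scale (limma adjusted p = 0.00293). SKP2, which marks CDKN1B for degradation, fell at -0.47 (adjusted p = 0.0141), and CDC25A, a phosphatase that activates CDK2, rose at 0.42 (adjusted p = 0.00837), both in DU145-DR. Of the 30 mitotic genes 9 rose and 1 fell in DU145-DR, beside 8.72% and 7.98% of all genes. In ARCaPM-DR 1 rose and 5 fell, beside 9.86% and 8.62%. In 22Rv1-DR 0 rose and 4 fell, beside 0.124% and 0.276%, and all 4 were genes with values that were not whole reads. The hairpins stood apart in ARCaPM-DR. Against the line's mean, the mitotic median was 0.21, -0.05 and 0.27 in replicates 1, 2 and 3 of shGATA2a. It was -0.18, -0.30 and -0.18 with shGATA2b and 0.25, -0.02 and 0.07 in the controls. With the block 14 rose and 2 fell in DU145-DR, beside 19.6% and 19.2% of all genes.

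The knockdown effects of members with and without an E2F word are given side by side, with no test. The 19 members with a word had median log2 fold changes of -0.13 in ARCaPM-DR, -0.13 in DU145-DR and -0.32 in 22Rv1-DR, and the 12 with a window but no word had -0.15, -0.08 and -0.20. Of the genes that fell in ARCaPM-DR, MCM7, PCNA, POLE and LIG1 held a word, POLD1 held none, and RPA3 and CCNE2 had no window. CDC6, which rose in DU145-DR, and GINS2, which fell there, each held 1 word, and CHAF1B, which fell there too, held none.

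Some of these counts may include reads of overlapping genes. In GENCODE version 29, exons of MCM2, MCM7, RPA3, CCNE2, GINS2 and LIG1 overlap a gene on the opposite strand. The overlapping genes include TPRA1, AP4M1, UMAD1, INTS8 and GSE1. Exons of GINS3, GINS4, RPA1, RFC4, RFC5, CHAF1A, FEN1 and PRIM1 also overlap a gene on the opposite strand. Those of CHAF1B, POLD1, POLA2, POLD3, FEN1 and PRIM1 overlap a gene on the same strand. No source used here says whether reads were counted by strand, so the reads of such pairs cannot be told apart.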

How the data were processed

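RNA was isolated with a column kit and sequenced from standard Illumina libraries, per the labels' protocols, and the submitters' processing notes name TopHat2 2.0.9, Cufflinks 1.3.0 and the builds hg19 and GRCh37. The deposited signal table holds read counts per gene symbol that the authors divided by a factor for each library; the counting tool, the scaling tool and the use of strand are not given in any source used. This follows from the values: divided by the worth of 1 read in their library, 99.954% of 433407 values above 0 were whole within 0.005 reads, and 199 values in 58 genes were not. The test was chosen for such values and not for raw counts.

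Genes that reached 10 in 3 or more libraries were tested on log2(value + 1) with limma 3.58.1 (R 4.3.3), with a trended prior and Benjamini-Hochberg adjustment over all tested genes, and called at an adjusted p under 0.05. Each line was fitted on its 9 libraries (13079 genes in ARCaPM-DR, 13757 in 22Rv1-DR, 13362 in DU145-DR); averages, differences between lines and control levels came from 1 fit of 27 libraries and 15295 genes. Standard errors (SE) are limma's moderated ones. On the recovered reads, edgeR 4.0.16 called 2482 genes in ARCaPM-DR, 57 in 22Rv1-DR and 2360 in DU145-DR, and limma on the deposited values called 2418, 55 and 2231. DESeq2 1.42.0 on the recovered reads called 3135, 185 and 2699. Recovered reads were the deposited values rounded to whole reads, with the round amounts left in. The edgeR and DESeq2 counts therefore also rest on the values that were not whole. Without the genes that have values not whole limma called 1 gene in 22Rv1-DR, and 3 without a trend. Other alternatives were another pseudocount (0.1), filters, scalings, prior, replicate block and leaving out each library.

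Replicate numbers come from the sample titles. Same-numbered libraries deviated together in every pair in DU145-DR (lowest correlation 0.275) and 22Rv1-DR (lowest 0.211), so the block is given for these lines where it changes a call. Over the members alone the lowest such correlation was 0.374 in DU145-DR and -0.181 in 22Rv1-DR (median 0.118). The joint block fits also block the numbers of ARCaPM-DR. Promoter windows are from RefSeq, build GRCh38.p14, and no coordinate was taken from the deposited table. The members and lists were chosen with earlier results of these data known. Described with every library's value, or for 6 knockdown libraries their range and median, were members past the threshold in a line or in the average, filled to 4 in a line with fewer; for differences, hairpins and control levels up to 5 members, and for the further replication genes up to 4 a line, by the smallest p. Others were named after their values were seen.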

Additional observations from a re-analysis of the deposited data

Results flagged for a closer look

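The knockdown effect on RPA3 differed between lines by the test of the difference itself. RPA3 averaged 191.6 in the 6 knockdown libraries of 22Rv1-DR, against 455 in its controls, and the effect in 22Rv1-DR minus that in DU145-DR was -1.24 on the log2 scale (limma adjusted p = 0.00326). Control replicates 2 and 3 of 22Rv1-DR are values that are not whole reads. With 300 taken off each, the controls averaged 255 and the difference was -0.36 (limma adjusted p = 0.584).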

How the results depend on the processing

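In DU145-DR (3 members) 0 passed in 1 fit of all libraries or without a trend, 1 without a filter, 5 by DESeq2 and 15 with the block, with or without the genes that had values not whole. In 22Rv1-DR (1) 3 passed in 1 fit of all libraries and 2 with the block; 0 passed without a trend, without genes that had values not whole (with or without the block), with the round amounts taken off (with or without the block) or without the libraries numbered 3. In ARCaPM-DR (7) 3 passed without a trend, 16 with the block, and 14 with the block and without genes that had values not whole. For differences between lines (1) the counts were 11 with the block, 9 with the block and without those genes, 0 without those genes or with the round amounts taken off, and 4 without the libraries numbered 3. For the average (10) the block gave 18, or 16 without those genes. For the hairpins against control (10) it gave 26 and 24, and 5 passed without a trend. Between the hairpins (0) it gave 4 and 3. No count of control levels (35) moved by over 1.5 times. MCM2 and RPA3 are among the genes that had values not whole, so fits without those genes could not call either.

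Leaving out 1 library gave 0 to 5 members in DU145-DR, 0 to 1 in 22Rv1-DR, 1 to 11 in ARCaPM-DR, 1 to 4 for differences, 6 to 11 for the average, 4 to 12 for hairpins, 0 between hairpins and 34 to 36 for control levels. In ARCaPM-DR the lowest same-number correlation was 0.0559 (median 0.583), and 7 of 9 libraries correlated best with their own number, a hint from the data and not from the design; 14 members fell and 2 rose there with the block, beside 2960 lower and 2925 higher of all 13079 genes. The 26 single-gene results, each refitted under the alternatives that apply to it, gave 733 gene results. Of these 589 kept direction and side of the threshold, 135 lost the threshold, 9 gained it and 0 changed direction. Taking off round amounts, leaving out the libraries numbered 3 and the block without genes that had values not whole were chosen after seeing the data. The causes were not tested.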

Other observations

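DBF4, which activates the CDC7 kinase at origins, stood apart in level and was singled out after its values were seen. In DU145-DR it had 21102 to 30492 normalised reads in the 6 knockdown libraries, against 16847 to 24739 in the 3 controls. In ARCaPM-DR it had 328 to 548 in knockdown libraries, against 589 to 686 in controls, and in 22Rv1-DR 226 to 356, against 360.1 to 430.3. CDC7 itself averaged 752 in knockdown and 736 in control libraries of DU145-DR. DBF4 lies on chromosome 7 near ABCB1, the gene of a drug efflux pump, with RUNDC3B and SLC25A40 between them in RefSeq. In DU145-DR ABCB1 averaged 70462 in knockdown and 70231 in control libraries, SLC25A40 3429 and 3432, and RUNDC3B 3.29 and 3.09. In ARCaPM-DR ABCB1 was 12168 to 27571 in knockdown libraries (mean 19597), against 6475.5 to 7745.4 in controls (mean 7079), without overlap. In 22Rv1-DR it averaged 15102 in knockdown and 14486 in control libraries.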
